A study of Homo sapiens with 6 samples.

Results

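The genes examined were 44 members of glucose breakdown and of the response to low oxygen, taken from a table of 18268 gene rows by symbol, whether a symbol stood alone or inside a row that joined several symbols. All 44 had a row. Of these, 36 had a row of their own, and 8 shared a row with at least 1 other gene. The RNA was from MIA PaCa-2, a line of human pancreatic cancer cells that the labels call epithelial and that was grown in DMEM with fetal bovine and horse serum. Total RNA was sequenced from 3 libraries with the genotype LINC00901 KO, a knockout of a long non-coding RNA gene (KO 1 to 3), and from 3 libraries with the genotype Vector Control, titled LCV2 (vector control 1 to 3). The groups are called knockouts and controls. The labels name no low-oxygen treatment, no clone or pool, and no separate cultures or days, so p-values measure the spread between these libraries, which may be technical.

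Glycolysis converts glucose to pyruvate in the cytosol. Hexokinase and phosphofructokinase set much of its pace, and lactate dehydrogenase turns pyruvate to lactate when it is not passed to mitochondria. Hypoxia-inducible factors (HIFs) pair an oxygen-labile alpha subunit with a stable beta subunit. In oxygen, prolyl hydroxylases mark the alpha subunit for the VHL ubiquitin ligase. When oxygen is short, the pair accumulates and switches on genes of glucose uptake, glycolysis, acid export and blood vessel growth. Pancreatic tumours are known for poor oxygen supply and high glucose use.

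Values are FPKM, which count fragments relative to the length of a transcript and the size of its library. Summed FPKM ran from 123107 to 134389 per library, and read depth is unknown. No row named LINC00901, so the knockout was not checked and directions rest on the labels. Replication-dependent histone genes took 2.83 to 3.29% of summed FPKM in vector control 2, vector control 3 and KO 1, and 5.21 to 6.28% in vector control 1, KO 2 and KO 3, a division that crosses the groups. Of the epithelial markers with a row of their own, KRT18 stood at 70.41 to 79.42 FPKM in the controls and 28.78 to 58 in the knockouts, and KRT19 at 17.46 to 39.34 and 12.69 to 25.11, with overlap. EPCAM reached at most 0.14 FPKM, CDH1 0.02 and KRT7 0.11. Of the mesenchymal markers, VIM ran from 459.52 to 674.8 and ZEB1 from 3.54 to 4.63, while CDH2 reached at most 0.06 and FN1 0.72. Leukocyte, endothelial, acinar and endocrine markers with a row of their own reached at most 0.68, 0.33, 0.15 and 0.09 FPKM. Of the fibroblast markers, COL1A2 stood at 24.72 to 35.84 FPKM in the controls and 50.63 to 56.18 in the knockouts, and COL3A1 at 43.1 to 62.02 and 16.46 to 41.24, both without overlap and without passing (limma adjusted p = 0.119 and 0.164). COL1A1 ran from 0.96 to 3.95 FPKM, LUM and PDGFRB reached at most 0.17 and 0.07, and DCN is listed at 0. The part of these markers in the results was not tested.

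Knockout libraries carried less of the row HIF1A;SNAPC1 and of NDRG1, and 36 of the 38 tested members did not pass. A gene was tested when at least 3 libraries reached 1 FPKM, with limma on log2(FPKM + 1) over 9624 rows, with a call where the p adjusted by Benjamini and Hochberg was under 0.05. Among all rows tested, 1.35% were called, 0.842% lower and 0.509% higher in the knockouts. Among the tested members, 2 fell and 0 rose in limma. At an unadjusted p below 0.05, 6 were lower and 1 higher (15.8% and 2.63%, against 6% and 11.5% of all tested rows). Robust limma with array weights called 16 members lower and 3 higher. Those 3 were PDK3, EGLN1 and the row ATP7A;PGK1. The 16 were SLC2A1, SLC2A3, the row HKDC1;HK1, HK2, ALDOC, TPI1, PFKFB3, SLC16A3, the row HIF1A;SNAPC1, EPAS1, VEGFA, ADM, ANGPTL4, NDRG1, ERO1A and KDM3A. That fit called 4020 of all 9624 tested rows, 1424 lower and 2596 higher. The groups did not overlap in 8 members that were lower and 2 that were higher, against 8.35% and 15.4% of all tested rows (23.8% in either direction). The median log2 fold change, KO minus vector control, was -0.11 over the tested members and 0.08 over all tested rows. Of the tested members, 34 reached 1 FPKM in every library, and NDRG1 passed through its vector control libraries alone. Without vector control 1, limma called 1329 of all tested rows (488 lower and 841 higher), against 130 with all libraries. Calls of single genes in that setting are read beside this count. The members were chosen with earlier results of these data known, so these counts and medians are descriptions.

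**Figure D1:**
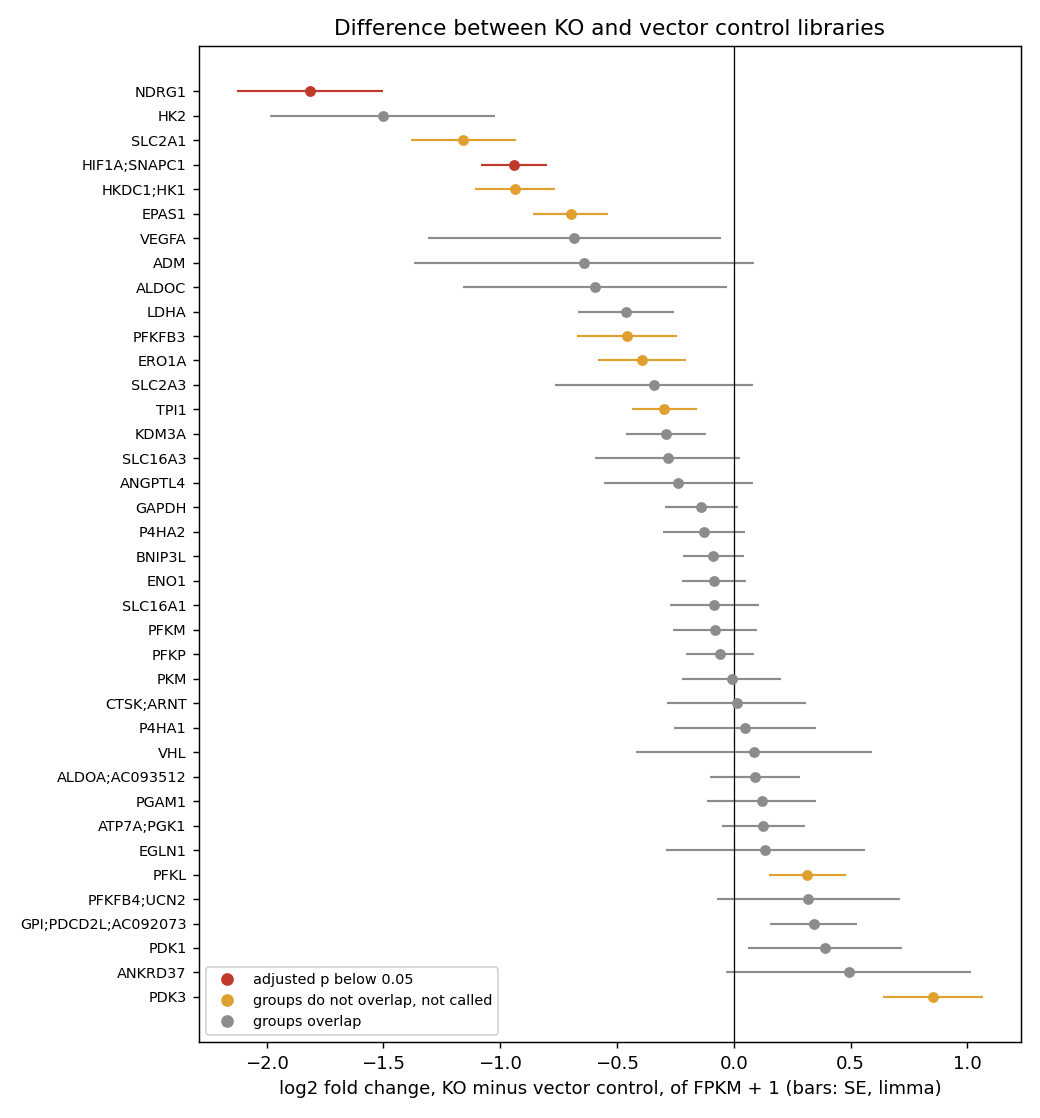
Log2 fold change of each tested member on the log2(FPKM + 1) scale (x axis) with its standard error from limma as bars, rows ordered by size. NDRG1 lies lowest at -1.81 and PDK3 highest at 0.85, and the row HIF1A;SNAPC1 is the other called row.

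For the joined row HIF1A;SNAPC1 and for EPAS1 the knockouts lay below the controls without overlap, and the joined row was called. HIF1A encodes the broadly expressed alpha subunit. Its row also carries SNAPC1, a subunit of the complex that activates small nuclear RNA genes. The row stood at 32.95, 39.81 and 38.70 FPKM in vector control 1 to 3 and at 18.63, 19.28 and 18.60 in KO 1 to 3. All knockouts lay close together and below every control. The row fell from 37.2 ± 3.68 to 18.8 ± 0.384 FPKM (SD, n = 3 per group), which was 1.97-fold lower (log2 fold change -0.94, SE 0.14, limma adjusted p = 0.0293). Because the 2 symbols share a row, the values do not tell HIF1A and SNAPC1 apart. As these are bulk samples, fewer cells of a type and less RNA per cell cannot be told apart either. The call was lost without vector control 2 (limma adjusted p = 0.161), vector control 3 (0.159), KO 1 (0.0599), KO 2 (0.145) or KO 3 (0.158), while the log2 fold change stayed between -1.02 and -0.89 with any library left out.

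EPAS1, the gene of the second alpha subunit, HIF-2alpha, was far less abundant. It stood at 1.66, 2.56 and 2.47 FPKM in the controls, against 0.91, 0.95 and 1.07 in the knockouts. The groups did not overlap, but the difference missed the threshold (log2 fold change -0.70, SE 0.16, limma adjusted p = 0.106). EPAS1 was called without vector control 1 (log2 fold change -0.83, limma adjusted p = 0.0166) and by the robust fit (-0.80, 0.00171). No call remained when any other library was left out (limma adjusted p from 0.171 without KO 1 to 0.372 without vector control 3). Only 1 KO library reached 1 FPKM, so EPAS1 entered the test mainly through its vector controls. ARNT encodes the beta subunit that both alpha subunits need, and it shares a row with the protease gene CTSK. That row stood at 4.10, 8.88 and 9.62 FPKM in the controls, against 8.52, 7.09 and 6.12 in the knockouts (log2 fold change 0.01), with vector control 1 lowest and the rest intermixed.

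Genes of the oxygen-sensing step varied among libraries of the same group. VHL, the ubiquitin ligase subunit that recognises hydroxylated alpha subunits, stood at 5.75, 6.95 and 6.69 FPKM in the controls, against 2.27, 13.39 and 9.54 in the knockouts. KO 1 was thus the lowest of all libraries, and KO 2 and KO 3 were the highest. EGLN1, which encodes the main prolyl hydroxylase PHD2, was highest in vector control 1 (17.86 FPKM) and lowest in the other controls (5.01 and 5.22), with the knockouts between them (9.17, 8.33 and 8.84). EGLN3, the gene of the hypoxia-induced hydroxylase PHD3, did not exceed 0.02 FPKM in any library. Neither tested gene of this step passed (limma adjusted p = 0.950 for VHL and 0.898 for EGLN1), and the sign of the EGLN1 difference turned without vector control 2 (log2 fold change -0.15) or 3 (-0.12) and with the histone division as a covariate (-0.12). EGLN1 was called higher without vector control 1 (log2 fold change 0.68, limma adjusted p = 0.0234) and with robust limma and array weights (0.62, 0.0274).

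NDRG1, a stress-response gene strongly induced by low oxygen, had the lowest fold change of the members. It stood at 2.56, 7.00 and 6.86 FPKM in the controls, against 0.72, 0.73 and 0.73 in the knockouts. Vector control 1 lay between the other vector controls and the knockouts, which were nearly equal. All knockouts lay below 1 FPKM, so NDRG1 entered the test through its controls alone, the group where it was high. NDRG1 fell from 5.47 ± 2.52 to 0.727 ± 0.00577 FPKM (SD, n = 3 per group), a 7.53-fold difference of the means (log2 fold change -1.81, SE 0.31, limma adjusted p = 0.0466). The call was lost without any filter on low values (limma adjusted p = 0.0608). It was also lost without vector control 2 (0.162), vector control 3 (0.172), KO 1 (0.107), KO 2 (0.184) or KO 3 (0.182). The log2 fold change stayed at -1.81 without the filter and between -1.82 and -1.62 without any of these 5 libraries. Without vector control 1 it was -2.20 (limma adjusted p = 0.00156).

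**Figure D2:**
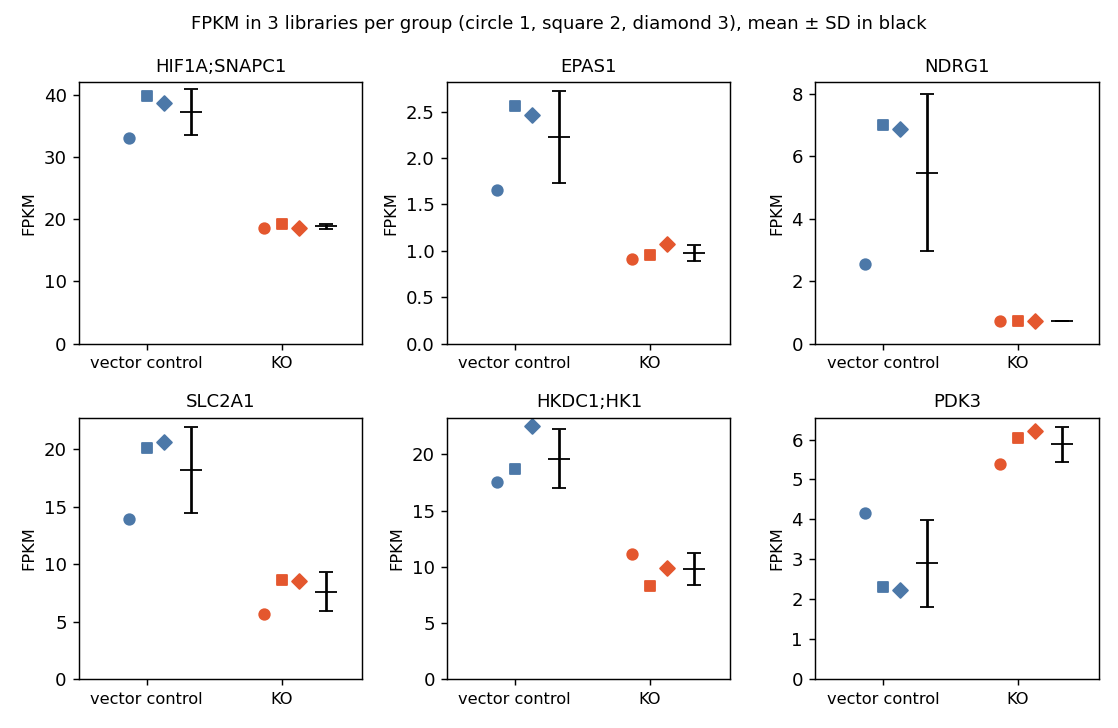
FPKM (y axis, from 0) of 6 members or member rows whose groups did not overlap, with 1 symbol per library and the mean ± SD of 3 libraries in black. In the row HIF1A;SNAPC1 the knockouts sit between 18.60 and 19.28 FPKM, below the lowest vector control at 32.95.

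The glucose transporter SLC2A1 (GLUT1), which supplies basal glucose uptake in most cells, stood at 13.90, 20.11 and 20.62 FPKM in the controls, against 5.65, 8.62 and 8.58 in the knockouts. Every knockout lay below every control, by 2.39-fold on the means, yet SLC2A1 did not pass (log2 fold change -1.16, SE 0.23, limma adjusted p = 0.0653). SLC2A1 was called without vector control 1 (limma adjusted p = 0.0181) and by the robust fit (0.00111). Leaving out any other library gave no call (limma adjusted p from 0.108 without KO 1 to 0.242 without vector control 3). SLC2A3 (GLUT3), a high-affinity transporter, gave 2.08, 6.65 and 6.49 FPKM in the controls and 5.90, 2.64 and 2.46 in the knockouts. Here the libraries of each group spanned nearly the same range. SLC2A3 made up 51.1% of the summed FPKM of the 2 transporters in KO 1, and 13.02 to 24.9% in the other 5 libraries (exact two-sided permutation p = 0.6 between groups, adjusted p = 1 over 7 families).

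Hexokinases trap glucose in the cell as glucose 6-phosphate. The row HKDC1;HK1, which joins the widely expressed HK1 with its neighbour HKDC1, another hexokinase, stood at 17.54, 18.72 and 22.55 FPKM in the controls, against 11.11, 8.32 and 9.90 in the knockouts. The groups did not overlap, and the difference narrowly missed the threshold (log2 fold change -0.94, SE 0.17, limma adjusted p = 0.0520). The row was called after median scaling (limma adjusted p = 0.0488), without a filter (0.0483) and with the histone division as a covariate (0.0407). It was also called without vector control 1 (limma adjusted p = 0.0210) and with robust limma (0.00171). With any other library left out it was not called (limma adjusted p from 0.0669 without KO 1 to 0.234 without KO 2). HK2, the inducible isozyme prominent in tumours, stood at 27.81, 43.25 and 42.74 FPKM in the controls, against 29.42, 7.74 and 8.21 in the knockouts. KO 1 lay inside the range of the controls, while KO 2 and KO 3 lay far below it. Over all libraries HK2 did not pass (log2 fold change -1.50, SE 0.48, limma adjusted p = 0.197). Without KO 1 it did (log2 fold change -2.09, limma adjusted p = 0.0248), as it did with robust limma and array weights (-2.12, 0.00197). With any other library left out HK2 was not called (limma adjusted p from 0.0967 without vector control 1 to 0.481 without vector control 3).

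The enzymes that follow hexokinase showed small differences. GPI interconverts the hexose 6-phosphates, and its joined row GPI;PDCD2L;AC092073 ran from 29.58 to 43.63 FPKM in the controls and from 43.31 to 53.36 in the knockouts. Of the phosphofructokinase subunits, which commit hexose to glycolysis, PFKL was higher in every knockout (13.97 to 15.23 FPKM) than in any control (9.46 to 13.18) but did not pass (log2 fold change 0.31, limma adjusted p = 0.368; 0.18 without vector control 1). PFKM ran from 8.54 to 11.92 FPKM and PFKP from 7.73 to 9.47 over all 6 libraries, so the 3 subunit genes were present at like levels. PFKP took 28.9% ± 2.85 of their summed FPKM in the controls and 25.8% ± 0.761 in the knockouts (n = 3 per group). Its share did not overlap between groups, and the exact two-sided permutation p of 0.1 is the smallest that 3 libraries against 3 can give (adjusted p = 0.7 over 7 families).

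Aldolase cleaves fructose 1,6-bisphosphate. The row ALDOA;AC093512, with the muscle-type and housekeeping isozyme, ran from 95.64 to 140.41 FPKM over all libraries with the groups overlapping. ALDOC, the brain-type isozyme, stood at 3.23, 11.83 and 13.79 FPKM in the controls, against 10.27, 4.56 and 2.72 in the knockouts. The high libraries of ALDOC were vector control 2, vector control 3 and KO 1, the same 3 as for SLC2A3. TPI1, which equilibrates the triose phosphates, was lower in every knockout (154.27, 186.82 and 159.86 FPKM) than in the controls (202.86, 204.29 and 206.73), without passing (log2 fold change -0.30, limma adjusted p = 0.324).

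In the lower pathway, GAPDH and ENO1 had the highest mean FPKM of all members. GAPDH, the triose phosphate dehydrogenase, stood at 855 ± 114 FPKM in the controls and 773 ± 30.8 in the knockouts (SD, n = 3 per group; log2 fold change -0.14, limma adjusted p = 0.691). Its log2 fold change was -0.24 without vector control 1 and -0.05 without vector control 3. ENO1, the enolase, followed at 262 ± 17.7 and 247 ± 12.6 FPKM. PKM, the pyruvate kinase gene, stood at 144 ± 8.30 and 147 ± 37.1, and PGAM1, the phosphoglycerate mutase, at 125 ± 14.3 and 139 ± 38.3. For PKM and PGAM1 the wide spread of the KO group came from KO 1, at 105.2 and 95.75 FPKM, below KO 2 and KO 3 at 152.59 or more. The phosphoglycerate kinase gene PGK1 shares a row with the copper transporter gene ATP7A. That row ran from 30.48 to 42.48 FPKM, and its level is not that of PGK1 alone.

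Across the 14 glycolytic enzymes from hexokinase to pyruvate kinase, 0 were called in either direction by limma. At an unadjusted p below 0.05, 2 were lower and 0 higher, against 6% and 11.5% of all tested rows. Robust limma with array weights called 4 lower and 1 higher, against 1424 and 2596 of all 9624 tested rows. The log2 fold change was below 0 in 9 and above 0 in 5, and its sign turned in at least 1 alternative for PFKM, PFKP, the row ALDOA;AC093512, PGAM1, ENO1 and PKM. Under the scalings it turned for the row ALDOA;AC093512 (median scaling) and for ENO1 and PKM (quantile normalization). With the histone division as a covariate it turned for PFKM (0.02) and PGAM1 (-0.05). The 10 with a row of their own took 1.26% ± 0.0791 of summed FPKM in the controls and 1.197% ± 0.0504 in the knockouts (n = 3 per group, exact two-sided permutation p = 0.3). The largest share was in vector control 3 (1.33%) and the smallest in KO 1 (1.16%). The groups overlapped in this share.

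**Figure D3:**
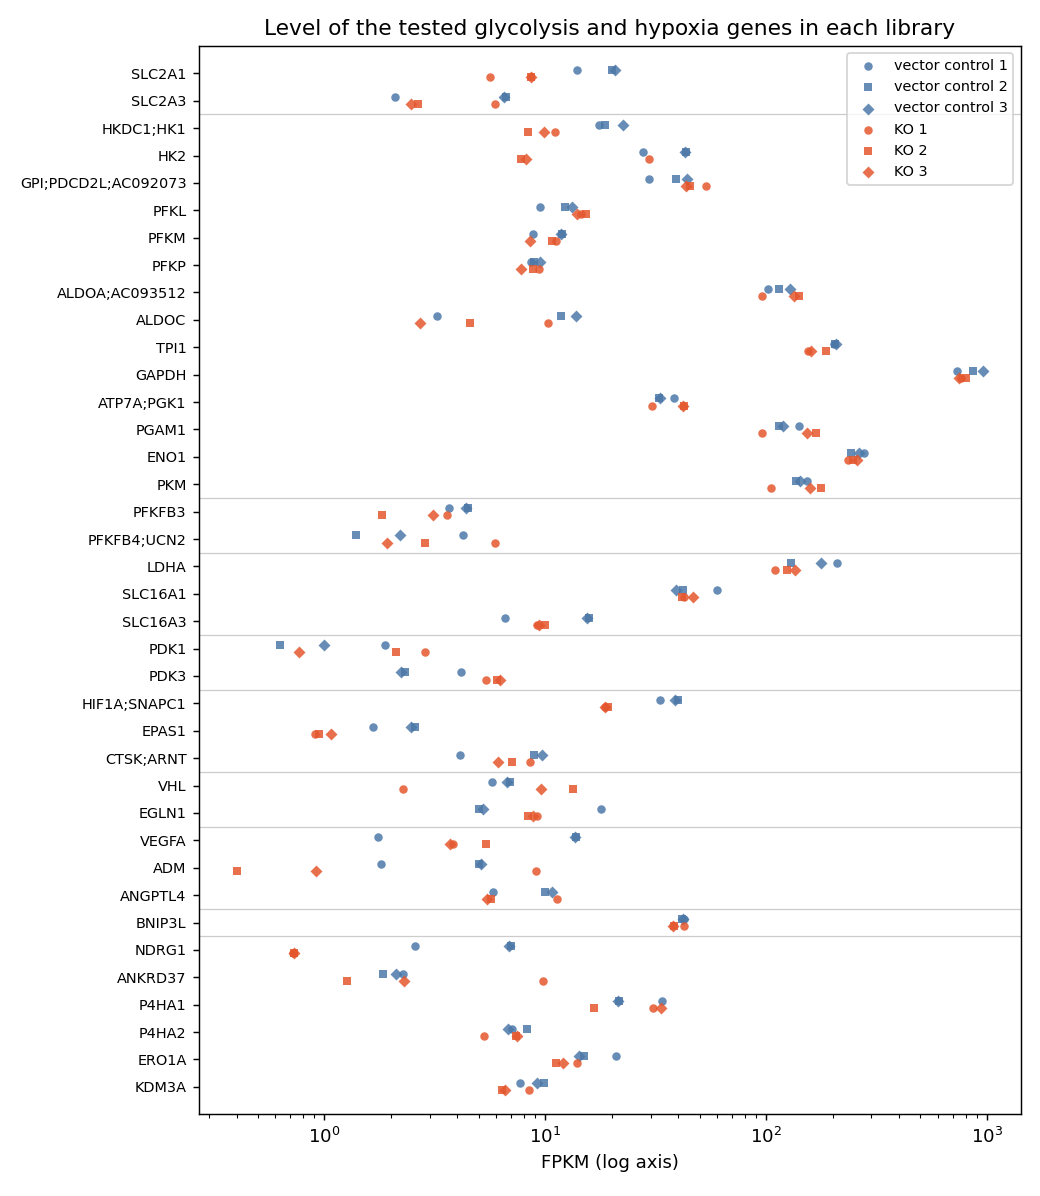
FPKM (log axis) of the 38 tested members in each of 6 libraries, with vector controls in blue, KO libraries in red and 1 symbol shape per replicate number. Grey lines separate the roles given in the text, and GAPDH lies farthest right, between 735.53 and 961.77 FPKM.

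PFKFB3 and PFKFB4 make and remove fructose 2,6-bisphosphate, the activator of phosphofructokinase. PFKFB3 stood at 3.67, 4.45 and 4.40 FPKM in the controls, against 3.59, 1.83 and 3.09 in the knockouts, without overlap and without passing (log2 fold change -0.46, limma adjusted p = 0.317; -0.25 without KO 2). The row PFKFB4;UCN2, shared with the urocortin 2 gene, was highest in KO 1 (5.93 FPKM) and vector control 1 (4.23) and ran from 1.39 to 2.84 in the other libraries.

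At the lactate step, LDHA, which favours lactate formation, stood at 209.69, 130.02 and 177.30 FPKM in the controls, against 110.04, 123.92 and 135.02 in the knockouts. The highest KO library lay just above the lowest vector control, and LDHA did not pass (log2 fold change -0.46, SE 0.20, limma adjusted p = 0.300; -0.31 without vector control 1). The row GYS2;LDHB, which joins the other main lactate dehydrogenase subunit gene to the liver glycogen synthase gene, was below the filter, at 0.10 to 0.19 FPKM in all libraries. SLC16A1 (MCT1), a monocarboxylate transporter, ran from 39.18 to 60.10 FPKM in the controls and from 41.55 to 46.70 in the knockouts. SLC16A3 (MCT4), the transporter for lactate export induced by low oxygen, gave 6.57, 15.75 and 15.44 FPKM in the controls and 9.21, 9.94 and 9.38 in the knockouts. For SLC16A3 the knockouts lay between vector control 1 and the other vector controls, and it did not pass (log2 fold change -0.28, limma adjusted p = 0.684). It was called lower without vector control 1 (log2 fold change -0.66, limma adjusted p = 0.0225) and with robust limma and array weights (-0.62, 0.0112). Without vector control 2 or 3 the log2 fold change was -0.09 or -0.10.

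The switch between lactate and mitochondrial oxidation holds kinases that turn pyruvate dehydrogenase off and phosphatases that turn it on. The kinase gene PDK3 had the highest fold change of the members. It stood at 4.16, 2.31 and 2.23 FPKM in the controls, against 5.39, 6.04 and 6.22 in the knockouts. The groups did not overlap, and PDK3 did not pass (log2 fold change 0.85, SE 0.22, limma adjusted p = 0.131). It was called without vector control 1 (limma adjusted p = 0.0121) and by the robust fit (0.00112). Leaving out any other library gave no call for PDK3 (limma adjusted p from 0.175 without KO 1 to 0.403 without vector control 3). PDK1, the kinase best known as a HIF-1 target, ran from 0.63 to 1.88 FPKM in the controls and from 0.77 to 2.85 in the knockouts. PDP1, a catalytic subunit gene of the opposing phosphatase and not among the 44 members, fell in the knockouts. It stood at 2.99, 6.14 and 5.68 FPKM in the controls, against 0.26, 1.01 and 0.21 in the knockouts (log2 fold change -1.99, SE 0.29, limma adjusted p = 0.0288). Its call was lost without vector control 2 (0.104), vector control 3 (0.124), KO 1 (0.0752), KO 2 (0.0562) or KO 3 (0.151), with log2 fold changes between -2.22 and -1.83. As 1 of its knockouts reached 1 FPKM, PDP1 entered the test mainly through its controls. The second phosphatase gene, PDP2, gave 8.22, 6.34 and 4.32 FPKM against 4.69, 2 and 2.99, with overlap.

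Among secreted products of hypoxia targets, VEGFA, the main growth factor of blood vessels, stood at 1.74, 13.82 and 13.71 FPKM in the controls, against 3.81, 5.41 and 3.69 in the knockouts. Vector control 1 was the lowest of all libraries, and vector control 2 and 3 were the highest. VEGFA did not pass (log2 fold change -0.68, SE 0.63, limma adjusted p = 0.615), while without vector control 1 it did (log2 fold change -1.49, limma adjusted p = 0.0121). Without vector control 2 or 3 the log2 fold change was -0.27 or -0.28. ADM, which encodes the vasodilator peptide adrenomedullin, gave 1.80, 5.01 and 5.12 FPKM in the controls and 9.12, 0.40 and 0.92 in the knockouts. ANGPTL4, an inhibitor of lipoprotein lipase, gave 5.81, 10.00 and 10.68 FPKM and 11.35, 5.70 and 5.46. In ADM and ANGPTL4 the highest library was KO 1 and the lowest were KO 2 and KO 3. ANGPTL4 did not pass (log2 fold change -0.24, limma adjusted p = 0.740). Its sign turned with the histone division as a covariate (log2 fold change 0.04), and robust limma with array weights called it lower (-0.68, adjusted p = 0.0162).

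The remaining hypoxia targets act inside the cell. ANKRD37, a small ankyrin repeat gene used as a marker of HIF-1 activity, stood at 2.26, 1.85 and 2.12 FPKM in the controls, against 9.81, 1.27 and 2.29 in the knockouts, so that KO 1 alone stood apart. BNIP3L, a mitophagy receptor gene, was among the steadiest members, at 42.0 ± 0.314 and 39.6 ± 2.64 FPKM (SD, n = 3 per group), and the sign of its small difference (log2 fold change -0.09) turned under quantile normalization (0.02). Its relative BNIP3 did not exceed 0.25 FPKM in any library. P4HA1, a collagen prolyl hydroxylase subunit gene, ran from 21.31 to 33.91 FPKM in the controls and from 16.68 to 33.43 in the knockouts, and the sign of its log2 fold change (0.05) turned under median scaling (-0.04). Its paralog P4HA2 ran from 5.30 to 8.25 FPKM. ERO1A, an oxidase for disulfide formation in the endoplasmic reticulum, was lower in every knockout (13.89, 11.17 and 12.02 FPKM) than in the controls (20.85, 14.95 and 14.28) and did not pass (log2 fold change -0.39, limma adjusted p = 0.330; -0.23 without vector control 1). KDM3A, a histone H3 lysine demethylase gene, ran from 7.67 to 9.84 and from 6.35 to 8.45 FPKM.

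The carbonic anhydrase genes CA9 and CA12, whose products acidify the outside of hypoxic cells, reached at most 0.18 and 0.48 FPKM. The matrix protein gene MXRA5 reached at most 0.04. With EGLN3, BNIP3 and the row GYS2;LDHB they were the 6 members below the filter. The 13 rows of mitochondrially encoded genes are all listed at 0, so an exact 0 in this table can be an unmeasured value. CA9, EGLN3 and MXRA5 are each listed at 0 in some libraries.

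Single libraries stood apart from their own group in several members. On the log2(FPKM + 1) scale, KO 1 exceeded the mean of KO 2 and KO 3 by more than 1 in 5 tested members, which is 13.2% of them against 1.63% of all tested rows. These were ADM (13.8-fold in FPKM), ANKRD37 (5.51-fold), HK2 (3.69-fold), ALDOC (2.82-fold) and the row PFKFB4;UCN2 (2.49-fold). VHL was the single member that KO 1 had more than 1 below its group (2.63%, against 2.37% of all tested rows). Vector control 1 lay more than 1 below the mean of vector control 2 and 3 in 7 tested members, 18.4% of them against 4.56% of all tested rows. These were VEGFA, ALDOC, SLC2A3, NDRG1, SLC16A3, ADM and the row CTSK;ARNT. EGLN1 was the single member with vector control 1 more than 1 above that mean (2.63%, against 4.47% of all tested rows). These counts are descriptions of libraries, not tests. Histone shares set KO 1 beside vector control 2 and 3, and ADM and ALDOC alone passed 1 on both sides of that division. The KO 1 and vector control 1 differences were of opposite sign in 20 of the 38 tested members (52.6%, against 63.4% of all tested rows). Vector control 1 was above its group in the row PFKFB4;UCN2 (0.92) and ANKRD37 (0.13). KO 1 was not above its group in VEGFA (-0.19) and NDRG1 (-0.01). The part of histone shares in these differences was not tested.

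**Figure D4:**
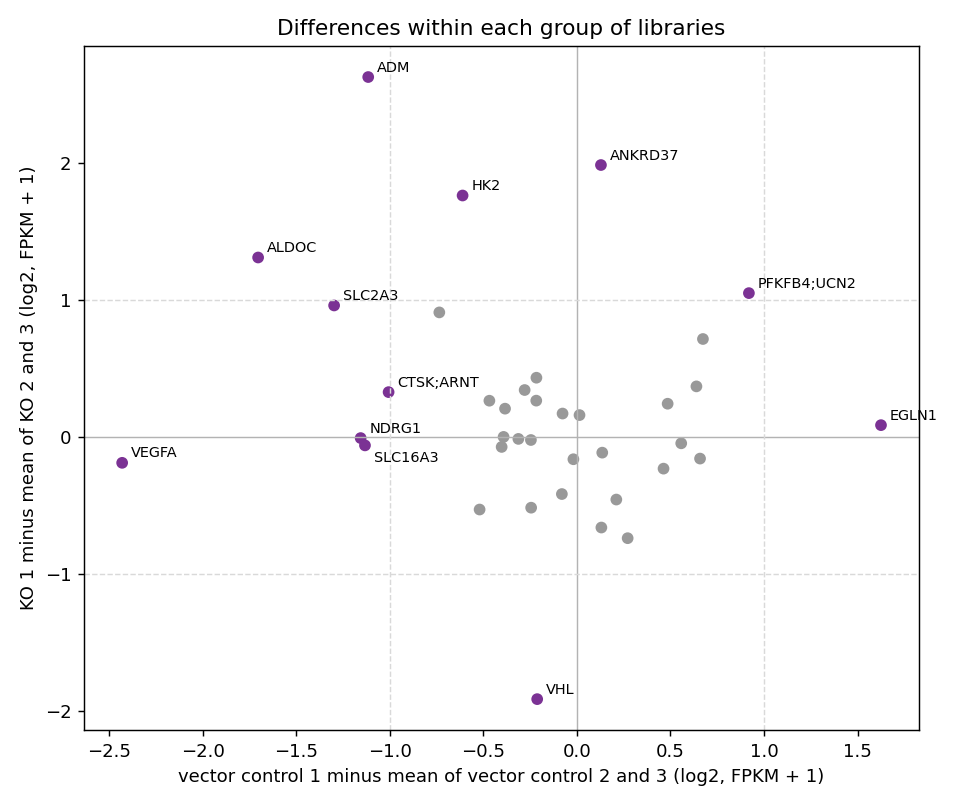
Each point is a tested member. The x axis gives vector control 1 minus the mean of vector control 2 and 3, and the y axis gives KO 1 minus the mean of KO 2 and 3, both in log2 of FPKM + 1. Members beyond 1 (dashed lines) in either direction are named, ADM and ALDOC lie beyond 1 on both axes, and VHL lies lowest on the y axis.

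Within the libraries that resemble each other in histone share, the differences could be set side by side. KO 1 minus the mean of vector control 2 and 3, and the mean of KO 2 and KO 3 minus vector control 1, were both below 0 in 12 of the 38 tested members (31.6%, against 22.5% of all tested rows) and both above 0 in 3 (7.89%, against 34.9%). For the row HIF1A;SNAPC1 these log2 differences were -1.04 and -0.77, for NDRG1 -2.20 and -1.04, and for SLC2A1 -1.68 and -0.63. For the row HKDC1;HK1 they were -0.83 and -0.88, for EPAS1 -0.88 and -0.40, and for PDK3 0.97 and 0.47. The differences were of opposite sign in 23 members (60.5%, against 42.7% of all tested rows). Among these were VEGFA, at -1.62 and 1.001, and ADM, at 0.74 and -0.77. These values rest on 1 library on one side and have no test.

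HIF binds the core letters ACGTG or GCGTG. Promoters are shown for 4 of the 5 members in which KO 1 stood more than 1 (log2) above KO 2 and KO 3. A part of HIF in the KO 1 values was not tested. The sequences are from RefSeq on GRCh38.p14 and cover the 250 bases before the annotated start on the gene's strand, with each match on either strand in capitals (overlapping matches merged). The build differs from the hg19 of the submitters' notes, so they were matched by symbol only. HK2 has 2 windows in the table, of which the first is printed, and the other held 4 matches. The window of PFKFB4, the member left out, held 1 match.
ADM (chr11:10304823-10305072, plus strand): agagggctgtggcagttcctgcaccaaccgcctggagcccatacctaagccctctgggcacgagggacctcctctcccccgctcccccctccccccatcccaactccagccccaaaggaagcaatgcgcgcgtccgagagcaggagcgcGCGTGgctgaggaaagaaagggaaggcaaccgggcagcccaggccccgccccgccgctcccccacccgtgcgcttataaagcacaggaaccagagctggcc
ANKRD37 (chr4:185396591-185396840, plus strand): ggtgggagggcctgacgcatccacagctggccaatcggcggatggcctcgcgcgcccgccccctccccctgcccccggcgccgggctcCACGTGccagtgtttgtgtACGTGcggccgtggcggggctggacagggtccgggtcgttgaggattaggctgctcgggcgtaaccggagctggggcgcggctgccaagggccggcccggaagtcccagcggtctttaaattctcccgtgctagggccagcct
HK2 (chr2:74833877-74834126, plus strand): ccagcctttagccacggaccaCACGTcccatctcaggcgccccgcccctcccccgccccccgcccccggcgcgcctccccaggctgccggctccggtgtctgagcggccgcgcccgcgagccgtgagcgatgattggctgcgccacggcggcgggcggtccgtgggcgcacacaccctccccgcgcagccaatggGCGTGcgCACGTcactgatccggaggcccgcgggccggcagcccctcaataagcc
ALDOC (chr17:28576896-28577145, minus strand): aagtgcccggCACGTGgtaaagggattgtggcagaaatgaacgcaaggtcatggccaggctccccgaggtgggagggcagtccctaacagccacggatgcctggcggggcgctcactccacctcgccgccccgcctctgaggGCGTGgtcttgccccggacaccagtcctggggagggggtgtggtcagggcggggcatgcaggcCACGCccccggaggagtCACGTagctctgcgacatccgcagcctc

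The window of ADM held 1 match, that of ANKRD37 2, that of HK2 3 and that of ALDOC 4. Short matches of this kind are common: 43.2% of all 34943 such windows held at least 1, and 16.2% held 2 or more. Of the members, 38 had 66 windows, 40 of which (60.6%) held a match, and 22.7% held 2 or more. SLC2A3, SLC16A1, VHL, VEGFA, BNIP3L and NDRG1 had no window in the table. Windows of the same gene can overlap, so the windows are not independent. The window of SLC2A1, whose groups did not overlap, held 0 matches, which says only that these letters are not within it.

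Wider lists of the same pathways gave few calls, read against the same 0.842% lower and 0.509% higher of all tested rows. Of 25 tested genes of pyruvate oxidation and the TCA cycle, PDP1 alone fell and 0 rose, with a median log2 fold change of -0.12. Of 23 other hypoxia-induced genes tested, STC1 alone fell, which encodes the secreted glycoprotein stanniocalcin 1, and 0 rose. STC1 stood at 21.93, 30.09 and 31.39 FPKM in the controls, against 0.20, 0.45 and 0.35 in the knockouts (log2 fold change -4.42, limma adjusted p = 1.37e-04), and it passed the filter through its vector controls alone. The median of that list was 0.15, above that of all rows, and GBE1, the glycogen branching enzyme, was higher in every knockout (26.45 to 29.84 FPKM) than in any control (17.60 to 19.54) without passing (limma adjusted p = 0.0990).

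In the other 4 lists, with 44 tested genes, limma called 0. At an unadjusted p below 0.05, 2 were lower and 5 higher, against 6% and 11.5% of all tested rows. Robust limma with array weights called 7 lower and 10 higher, against 1424 and 2596 of all 9624 tested rows. The 16 tested genes of the pentose phosphate, hexosamine and serine branches had a median log2 fold change of 0.00244, with UAP1 lowest (-0.66) and the serine enzyme PSPH highest (0.77). Without vector control 1, which stood at 67.42 FPKM against 26.8 and 28.77 in the other controls, UAP1 was at -0.24. PSPH was called without that library (1.11, limma adjusted p = 0.0312), in a fit that called 1329 of all tested rows. The 12 tested relatives of the glycolytic and gluconeogenic enzymes had a median of 0.29, with the pyruvate carboxylase gene PC lowest (-0.67) and the transporter SLC2A12 highest (0.63). SLC2A12 stood at 7.49 FPKM in KO 1 against 2.09 and 2.39 in the other knockouts, and its log2 fold change was 0.16 without KO 1. PC was at -1.06 without KO 1 and -0.40 without KO 2, and robust limma with array weights called it lower (-1.17, adjusted p = 0.00523). The 12 tested regulators of HIF had a median of -0.02, with the chaperone HSP90AB1 lowest (-0.24) and the coactivator EP300 highest (0.44). EP300 was called without vector control 1 (0.59, limma adjusted p = 0.0352), and HSP90AB1 was at -0.16 without KO 1. The 4 tested genes of the glucose-sensing MondoA and ChREBP system had a median of -0.28, with MLXIP, the MondoA gene, highest (0.30) and TXNIP lowest (-1.19, limma adjusted p = 0.618). With a library left out TXNIP ran from -2.37 (without vector control 1) to -0.60 (without vector control 3) without a call. It was at -0.16 with the histone division as a covariate, and robust limma with array weights called it lower (-2.91, adjusted p = 0.00550). MLXIP was at 0.18 without KO 1 and 0.19 without vector control 3.

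TXNIP, which restrains glucose uptake and is switched on by glucose through MondoA, followed the division of the libraries rather than the groups. It stood at 24.22, 289.52 and 291.61 FPKM in the controls, against 191.75, 27.84 and 31.31 in the knockouts. Its 3 high libraries were those in which ALDOC and SLC2A3 were also high.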

How the data were processed

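Per the submitters' processing notes, the authors used cutadapt, FastQC and HISAT2 with hg19. The sources used here do not give versions, the FPKM tool, the annotation or strand use, so reads of overlapping or antisense genes cannot be told apart. The table the authors deposited holds FPKM, a value per gene length and library size, to 2 decimals. A search for whole-read steps in low values found none (best concentration 0.392, where exact multiples give 1), so depth is unknown. Joined rows (990 of 18268) were kept as units. Tests used limma 3.58.1 in R 4.3.3 (lmFit, eBayes with trend) on log2(FPKM + 1), two-sided, without covariates. The code was also run on simulated data with equal noise in every row and no division of the libraries. That setting is unlike these data, so it does not show how the test behaves here. Fold changes on this scale understate low genes. Shares were compared by exact permutation over 20 arrangements of the libraries. Members and lists were chosen with earlier results of these data known. The rule for full values took called members, non-overlapping members and the most abundant member of each role. From the wider lists, called genes are named, or else the highest and lowest fold change. Per-library values of other members, and GBE1 and PDP2, were chosen after their values were seen. Alternatives were other pseudocounts, filters, scalings, fits and thresholds, a replicate block, a term for the histone-share division, and each library left out.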

Additional observations from a re-analysis of the deposited data

How the results depend on the processing

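The count of members called lower, 2, was 1 with a filter at 5 FPKM, 16 with robust limma and array weights, 0 at an adjusted p below 0.01 and 4 below 0.10. With 1 library left out it ran from 0 to 7 and the count called higher from 0 to 2 (both highest without vector control 1). Robust limma called 3 members higher. Over all tested rows 130 were called, against 241 without a filter, 59 with a filter at 5 FPKM, 4020 with robust limma, 240 with the histone division as a covariate, 31 at an adjusted p below 0.01 and 274 below 0.10, and 25 to 1329 with 1 library left out. The members' median of -0.11 became -0.19 after median scaling, -0.23 with robust limma and -0.22 without vector control 1, the lowest with a library left out (highest -0.096). With the replicate number as a block 0 members were called lower and 7 rows in all. Libraries of the same number did not deviate together (r = -0.374, -0.153 and -0.264 across genes). Vector control 2 and 3 had nearly the same r with each knockout (0.306 and 0.301 with KO 1). These values therefore cannot tell whether numbers 2 and 3 pair libraries, and a pairing was not excluded. Under this block the log2 fold changes stayed at -0.94 for the row HIF1A;SNAPC1 and -1.81 for NDRG1 (limma adjusted p = 0.213 and 0.179). Among the 16 members the naming rule took, signs turned for EGLN1 (-0.12 with that covariate, and -0.15 to 0.68 with a library left out), ANGPTL4 (0.037 with that covariate), BNIP3L (0.024, quantile normalization) and P4HA1 (-0.042 after median scaling, and -0.13 to 0.35 with a library left out, below 0 without vector control 2, vector control 3, KO 1 or KO 3). The causes were not tested. Joined rows left 5 families of isozymes without a share. Precision is set by 3 libraries per group, since depth is unknown.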
